A study of Mus musculus with 6 samples.

Results

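Lypd8, Dmbt1, Mptx1, Sval1, Lgals2, Lgals3, Lgals4 and Pigr encode surface defence proteins and lectins that are best known from the gut, and their transcripts were followed in bladders of mouse embryos that lack Get1. These 8 genes, of 18193 genes on the array, were picked by name, with the difference between the groups in these data already known for several of them. Each gene was read through its brightest probe set (a set of short probes against 1 transcript) over all 6 arrays. The members have 10 probe sets among 45101, and all 8 passed the filter on dim genes, though 5 of them lay under it on every heterozygous array and so passed through the null arrays alone. Because the difference between the groups had a part in choosing the members, their own values are given as a description with no test.

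Get1 is also called Grhl3 and encodes a transcription factor of the grainyhead-like group that acts in surface epithelia. The study set bladders of Get1 -/- embryos (null, 3 arrays, numbered 1 to 3) against those of Get1 +/- embryos (heterozygous, 3 arrays, numbered 4 to 6), all at embryonic day 18.5. The heterozygous embryos thus carry 1 copy of the null allele, with no wild-type bladder among the arrays analysed here. The labels give neither the strain nor the sex, and do not say whether an array held 1 bladder or a pool, so the spread between arrays may be partly technical. Array medians lay between 58.2 and 72.4 signal units and upper quartiles between 336 and 372, and null 1 differs from the other arrays in the first number of its title, whose meaning the labels do not give. Of 11 urothelial markers 11 passed the dim filter, as did 8 of 8 smooth muscle markers, so both tissues of a bladder wall were present. Grhl3 itself is among these 11 urothelial markers. Its probe set, whose place relative to the deletion is not known here, read 76.6, 21.5 and 120 in the null group, against 143, 133 and 126 in the heterozygous group.

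The gut surface carries a layer of secreted and membrane-bound proteins that hold microbes away from the epithelium. Some of them bind bacterial or host sugars (lectins, of which galectins recognise beta-galactosides), others bind microbial surfaces as soluble pattern recognition molecules, and Pigr carries polymeric IgA and IgM across the epithelial cell into the lumen. In a healthy bladder the surface is instead covered by urothelium, whose umbrella cells bear uroplakin plaques.

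Of the 8 members, 6 were far higher in null bladders and 2 were not. On every null array the signals of Lypd8, Dmbt1, Mptx1, Sval1, Lgals2 and Lgals4 lay above every heterozygous array, with log2 differences from 4.47 (Lgals4) to 7.61 (Lypd8). Lgals3 and Pigr overlapped between the groups, with differences of −0.16 and −0.15. The median difference of the 8 was 5.11, against −0.03 over the 12735 genes tested. Groups that did not overlap with null higher made up 6.07% of all tested genes, a share against which the count of 6 is not read because the contrast had a part in the choice. Values are log2(signal + 16), so the lowest possible level is 4 and differences of dim genes are understated, and differences are null minus heterozygous throughout. In whole bladders, more cells of a type and more RNA per cell cannot be told apart.

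**Figure D1:**
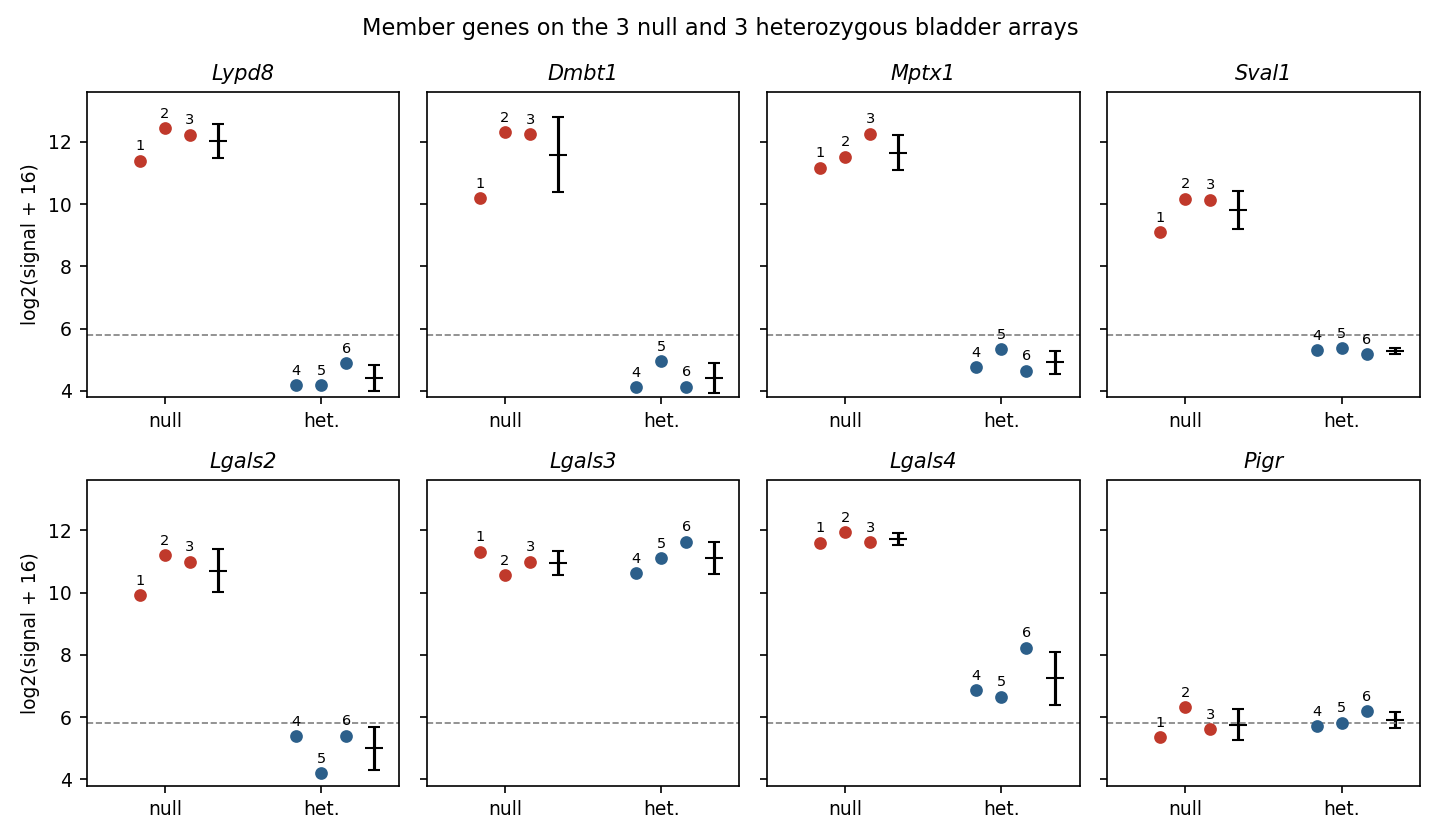
Levels of the 8 member genes as log2(signal + 16) on each null (red, left) and heterozygous (blue, right) array, with array numbers, and group means ± SD in black (n = 3 each). The dashed line is the dim filter at 5.80, which applies to the mean over all 6 arrays. Lypd8, Dmbt1, Mptx1, Sval1 and Lgals2 sit under the line on all heterozygous arrays, Lgals4 sits above it there, and Lgals3 and Pigr overlap between the groups.

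Lypd8 encodes a GPI-anchored, heavily glycosylated protein of the colon surface that binds flagellated bacteria. Its signal was 2680, 5537 and 4803 on null arrays 1 to 3, against 2.10, 2.11 and 13.7 on heterozygous arrays 4 to 6. The heterozygous signals were at the bottom of the scale, so they show only that no transcript was measurable above that level. The log2 level averaged 12.02 ± 0.55 (SD) in null bladders, against 4.42 ± 0.41 in heterozygous ones (n = 3 each), and the difference of 7.61 ranked 2 among the 12735 tested genes in order of size.

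Dmbt1 encodes a large mucosal glycoprotein built of scavenger receptor cysteine-rich domains, which binds bacteria. It read 1154, 5085 and 4828 on the null arrays, against 1.29, 15.1 and 1.55 on the heterozygous arrays. Null 1 was far below the other null arrays, with null 2 over null 1 at 4.41, which made Dmbt1 the most variable of the 6 higher members in null bladders. Its level was 11.58 ± 1.21 (SD) in null bladders, against 4.40 ± 0.48 in heterozygous ones (n = 3 each), a difference of 7.18.

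Mptx1 encodes mucosal pentraxin 1, a relative of the soluble pattern recognition proteins C-reactive protein and serum amyloid P. It read 2288, 2925 and 4889 on the null arrays, against 11.3, 24.6 and 9.08 on the heterozygous arrays. It was the 1 member of the 6 whose highest null array was null 3 instead of null 2. The level was 11.65 ± 0.56 (SD) in null bladders, against 4.92 ± 0.37 in heterozygous ones (n = 3 each), a difference of 6.73. Mptx2 is a related gene next to which the Mptx1 signal could not be set, because no probe set for it was used here.

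Sval1 (seminal vesicle antigen-like 1) belongs to the family of prolactin-inducible protein. It read 531, 1140 and 1115 on the null arrays, against 23.8, 25.5 and 20.01 on the heterozygous arrays. The heterozygous arrays were close to each other (highest over lowest 1.27) and stayed under the dim filter. The level was 9.80 ± 0.62 (SD) in null bladders, against 5.29 ± 0.10 in heterozygous ones (n = 3 each), a difference of 4.52. Its relatives Sva, Sval2 and Pip were left out as dim and not tested. Sva and Sval2 overlapped between the groups, with highest signals of 18.9 and 15.5. Pip did not overlap, at 23.8, 56.1 and 23.3 in null against 13.8, 11.4 and 14.1 in heterozygous bladders, a difference of 0.73. Of 8 markers of seminal vesicle and prostate with a probe set, 5 were left out as dim. The summed signal of the 8 was 417 to 677 in null and 392.4 to 474 in heterozygous bladders. Of the 3 tested, 0 passed limma's test in either direction, and 1 was higher at an unadjusted p under 0.05 (3.63% of all genes tested). That gene was Hoxb13, which read 107, 192 and 277 on the null arrays, against 66.0, 56.9 and 59.8 on the heterozygous arrays.

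The galectins among the members differed from each other. Lgals2 has 1 carbohydrate recognition domain, Lgals4 has a tandem pair of them, and Lgals3 joins such a domain to a proline- and glycine-rich tail and is also abundant in macrophages. Their promoter windows are shown here because these members of 1 family differed in their pattern between the groups. Each window runs from 250 bases before to 50 bases after a start given by RefSeq (GRCm38.p6), 5′ to 3′ on the gene's strand. For Lgals2 and Lgals3 that start is the outermost annotated base of the gene, whereas the whole Lgals4 window lies inside the annotated gene, downstream of its outermost base. The capitals mark matches to the searched motifs.
Lgals2, chr15:78855480-78855779, minus strand: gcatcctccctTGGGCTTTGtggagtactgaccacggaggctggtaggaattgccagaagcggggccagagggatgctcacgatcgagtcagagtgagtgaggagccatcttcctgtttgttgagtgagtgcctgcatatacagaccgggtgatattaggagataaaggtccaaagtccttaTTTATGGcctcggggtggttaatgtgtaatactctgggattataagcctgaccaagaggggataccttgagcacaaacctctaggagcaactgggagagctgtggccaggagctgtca
Lgals4, chr7:28833544-28833843, plus strand: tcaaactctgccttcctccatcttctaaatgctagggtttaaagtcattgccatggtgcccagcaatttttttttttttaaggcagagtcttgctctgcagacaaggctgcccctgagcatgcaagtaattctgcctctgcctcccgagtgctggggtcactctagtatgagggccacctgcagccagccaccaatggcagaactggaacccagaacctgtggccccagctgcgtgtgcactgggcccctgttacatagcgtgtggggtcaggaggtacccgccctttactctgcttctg
Lgals3, chr14:47373610-47373909, plus strand: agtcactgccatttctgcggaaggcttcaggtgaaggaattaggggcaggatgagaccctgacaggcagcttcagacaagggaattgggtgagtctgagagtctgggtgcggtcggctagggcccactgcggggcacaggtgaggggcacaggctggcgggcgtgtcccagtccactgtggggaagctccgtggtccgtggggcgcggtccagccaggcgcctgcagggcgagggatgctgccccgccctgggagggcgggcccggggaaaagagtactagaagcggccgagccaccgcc
The searched motifs were TTTATNG for Cdx factors, CAAAGNNCA for Hnf4 factors, AACNGGTT for grainyhead-like factors and AGATAAG for Gata factors, on both strands, with no overlap between the matches found. Of 8 windows of the 7 members with one (Lypd8 has more than 1, and Dmbt1 none), only the Lgals2 window held any, TTTATGG starting at position −68 from the start and, on the opposite strand, an Hnf4 match whose window letters are TGGGCTTTG, starting at −239. Over all 32851 windows the shares with a match were 10.9% for the Cdx, 6.36% for the Hnf4, 2.09% for the grainyhead-like and 3.04% for the Gata letters. Windows without a match say nothing about whether a factor acts on the gene. The G and C content was 67% in the Lgals3 window, 54% in that of Lgals4 and 52% in that of Lgals2.

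Lgals2 was measured by a pair of probe sets. The brighter one, whose name ending _s_at marks probes that can match further transcripts, read 953, 2340 and 2014 on the null arrays, against 25.8, 2.48 and 26.3 on the heterozygous arrays. The other read 1029, 2166 and 1551, against 6.42, 8.63 and 3.23. The probe sets thus placed the arrays in the same order within the null group, and their differences were 5.70 and 6.12. The level of the brighter one was 10.70 ± 0.69 (SD) in null bladders, against 5.00 ± 0.68 in heterozygous ones (n = 3 each).

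Lgals4 was the 1 member of the higher 6 that stayed above the dim filter on all heterozygous arrays. It read 3087, 3930 and 3139 in null bladders, against 101, 84.4 and 283 in heterozygous bladders. The null arrays were close to each other (highest over lowest 1.27), while heterozygous 6 stood above the other heterozygous arrays (highest over lowest 3.35). The level was 11.72 ± 0.19 (SD) in null bladders, against 7.25 ± 0.85 in heterozygous ones (n = 3 each), a difference of 4.47 that was 4.96 without heterozygous 6. Lgals6, a near-identical copy of Lgals4 in some mouse strains, has no probe set of its own here, so signal from it could not be told apart from that of Lgals4.

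Lgals3 was bright on every array and did not separate the groups. It read 2536, 1483 and 2019 on the null arrays, against 1551, 2175 and 3151 on the heterozygous arrays. The level was 10.95 ± 0.38 (SD) in null bladders, against 11.11 ± 0.51 in heterozygous ones (n = 3 each), and the difference of −0.16 turned to 0.10 without heterozygous 6 and to 0.04 without null 2. Its highest array, heterozygous 6, was also the array with the highest summed signal of leukocyte markers, though not of each marker. Csf1r (7247) and Lyz2 (1697) were far above all other arrays there, while Cd68, Fcgr3 and Itgam were not highest there. Cd68 read 147, against 193 on heterozygous 4, and Fcgr3 819, against 833 on null 1. The mean shift of the 10 leukocyte markers from the heterozygous mean was 0.70 on heterozygous 6. It was −0.38 and −0.32 on heterozygous 4 and 5, and −0.06, −0.31 and −0.14 on null 1 to 3. Their summed signal ran from 3677 to 4121 in null and from 3200 to 11095 in heterozygous bladders, 7 of 10 passed the dim filter, and 3 lay under it on all null arrays and 2 on all heterozygous arrays. Over all genes tested, heterozygous 6 was also less like heterozygous 4 and 5 (Pearson correlation 0.9431 and 0.9415) than these were like each other (0.9686). It thus differed from them in more than the leukocyte markers. The part of leukocytes in the Lgals3 values was not tested.

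Pigr was at the edge of detection in both groups. Its brighter probe set read 25.2, 63.6 and 32.8 on the null arrays, against 36.3, 40.8 and 57.4 on the heterozygous arrays, and 1 null and 2 heterozygous arrays were above the dim filter of 39.7 signal units. The other probe set read 5.47, 6.02 and 4.60, against 28.7, 4.77 and 20.4, and was left out as dim. The level of the brighter one was 5.76 ± 0.49 (SD) in null bladders, against 5.91 ± 0.26 in heterozygous ones (n = 3 each). Its difference of −0.15 became 0.05 without null 1. These signals show only that little or no Pigr transcript was measurable on either side, while the members above reached signals of 531 to 5537 on the null arrays.

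Among the null arrays, null 1 was the lowest for 6 of the 6 higher members, and null 2 the highest for 5 of 6. Pigr, which was not higher in null, had the same lowest and highest null array, while Lgals3 was lowest on null 2 and highest on null 1. These are the same null values that had a part in choosing the members. The mean shift of the 6 higher members relative to the heterozygous arrays reached 5.35, 6.39 and 6.37 for null 1 to 3, against −0.11, −0.09 and 0.20 on heterozygous 4 to 6. With 3 arrays, of which null 1 also differs in that title number, this order is a description. On average, the markers of intestinal epithelium moved with these members. They lay 2.63, 3.46 and 3.69 above their heterozygous mean for null 1 to 3, against −0.02, −0.24 and 0.26 on heterozygous 4 to 6. Of 16 listed markers 15 had a probe set and 11 were tested, and of these 8 passed limma's test as higher and 0 as lower, against 0.448% higher and 0.0628% lower over all genes tested. The summed signal of the list was 12412 to 25571 in null and 770 to 1270 in heterozygous bladders, and 9 of the 15 lay under the dim filter on all heterozygous arrays, and 0 on all null arrays. Cdx2, a defining factor of intestinal epithelium, read 393, 603 and 284 on the null arrays, against 27.5, 3.09 and 3.70 on the heterozygous arrays (difference 4.06, adjusted p = 0.0033, limma). The called genes were Cdx2, Vil1, Cdh17, Tff3, Muc2, Fcgbp, Fabp1 and Guca2a. Of these, Cdx2, Cdh17, Muc2, Fabp1 and Guca2a lay under the dim filter on all heterozygous arrays. They passed it through the null arrays alone. The tested entries that did not pass limma's test were Fabp2 (difference 2.53, adjusted p = 0.576), Lct (1.15, adjusted p = 0.361) and Krt20 (−0.35, adjusted p = 0.889). Fabp2 and Krt20 overlapped between the groups. Krt20 is also made by umbrella cells. Which cells made the member transcripts, and the part of intestinal cells in these values, was not tested.

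**Figure D2:**
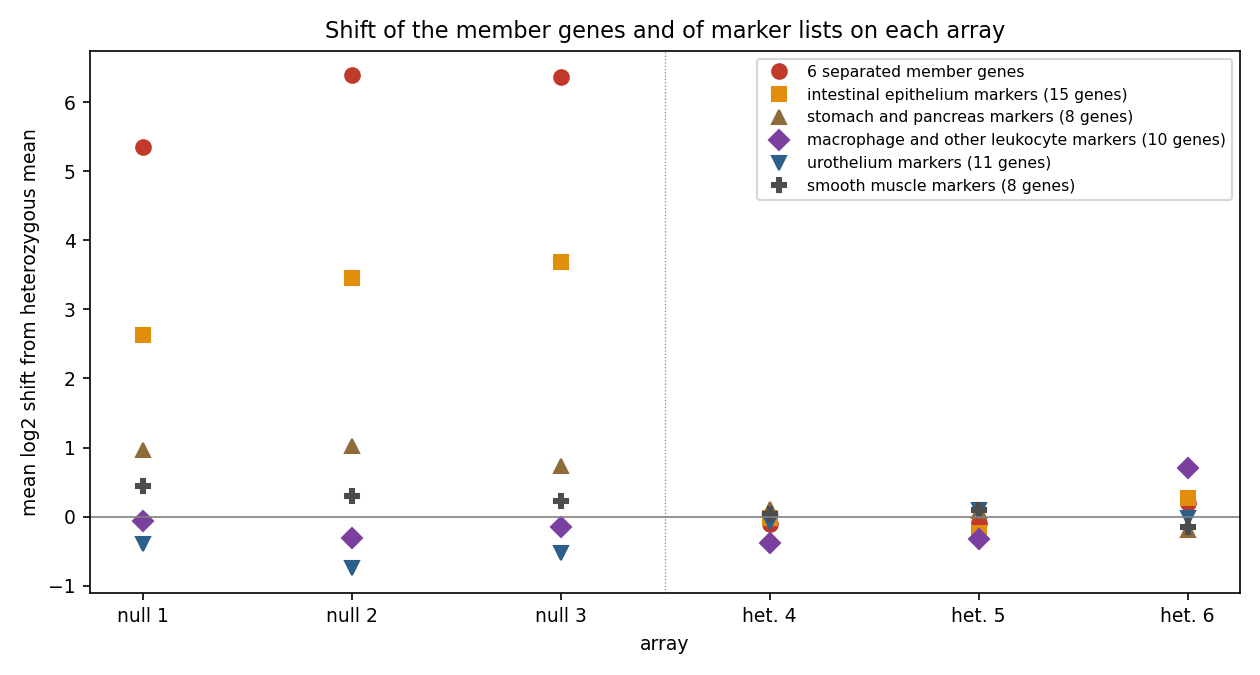
Mean log2 shift of gene lists from their heterozygous mean, for each array (null on the left, heterozygous on the right of the dotted line). The 6 higher member genes (red circles, 5.35 to 6.39 on null arrays) and the intestinal markers (orange squares, 2.63 to 3.69) are lowest on null 1 among the null arrays, and leukocyte markers (purple diamonds) are highest on heterozygous 6.

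Markers of stomach and pancreas also lay above their heterozygous mean on the null arrays, by 0.96, 1.02 and 0.73, but 0 of 3 tested passed limma's test, with 2 higher at an unadjusted p under 0.05 (3.63% of all genes tested). Urothelial markers lay below it on average, with shifts of −0.39, −0.75 and −0.53 on null arrays 1 to 3. Of 11 tested 1 fell (0.0628% of all genes tested) and 0 rose. The gene that fell was Upk2, a uroplakin (difference −3.03, adjusted p = 0.0022, limma). At an unadjusted p under 0.05, 2 were lower and 1 higher, against 4.3% and 3.63% of all genes tested. Beside Upk2 these were the uroplakin gene Upk1a (difference −2.36, adjusted p = 0.199, limma) and, named after its value was seen, the transcription factor gene Foxa1 (0.69, adjusted p = 0.553). Grhl3, the gene that null embryos lack, is itself in the urothelial list and its shifts (difference −0.95, adjusted p = 0.655, limma). The other urothelial markers overlapped between the groups and went both ways. Differences were −0.68 for Upk3b, −0.55 for Upk1b, −0.49 for Upk3a and −0.01 for Pparg. They were 0.03 for Krt5, 0.43 for Gata3 and 0.82 for Trp63.

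The genes with levels most like those of each member were found by Pearson correlation over the 6 arrays. Lypd8 was most like Agr2 (0.998), a secretory cell disulfide isomerase, and Tff3 (0.998), a goblet cell trefoil peptide. Mptx1 was most like Zg16 (0.999) and Reg3b (0.997), and Sval1 was most like Reg1 (0.999) and Dmbt1 (0.998). Dmbt1 in turn was most like Sval1 and Reg1 (0.994). Lgals2 was most like Muc13 (0.998), a membrane mucin, and Hnf4a (0.997), and Lgals4 was most like Clrn3 (0.999) and Phgr1 (0.998). For the 6 higher members, the 6 points of each correlation fall into the 2 genotype groups. For Lgals3 and Pigr they do not. Every pair was picked as the highest among all genes tested over 6 points, so the choice itself favours high values. All these values are a description. The genes most like Lgals3 were AI662270 (0.973) and Carns1 (0.972), and those of Pigr were Setd6 (0.987) and Synpo2l (0.985).

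The relatives of the members were taken by protein family and defence system. Over 7 such lists, 51 of 112 genes were tested, 2 rose, 1 fell and 48 did not pass limma's test, where 0.448% of all genes tested were called higher and 0.0628% lower. The median difference over the 51 was −0.03, as was that over all genes tested. With an unadjusted p under 0.05 there were 4 higher and 5 lower genes, against 3.63% and 4.3% of all genes tested. Groups did not overlap for 4 genes higher (Ly6d, Zg16, Pglyrp1 and Saa1) and 4 lower (Psca, Lypd2, Ly6h and Cd59a) in null, against 6.07% and 7.36% of all genes tested. These 8 are named because there are few of them, and Saa1, Lypd2, Ly6h and Cd59a were singled out after their values were seen.

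Among galectins and their partners beside the members, 0 of 6 tested genes passed limma's test, and 0 had an unadjusted p under 0.05. Lgals1, a galectin of mesenchyme and muscle and the brightest of the list, read 40462, 40761 and 40499 on the null arrays, against 42093, 45667 and 34849 on the heterozygous arrays (difference −0.0014, adjusted p = 0.998). Lgals3bp, a scavenger receptor cysteine-rich glycoprotein that binds Lgals3, read 282, 408 and 375 in null bladders, against 96.4, 114 and 387 in heterozygous bladders. Its difference of 1.02 did not pass (adjusted p = 0.652, limma). Heterozygous 6 again stood apart from the other heterozygous arrays, and without it the difference was 1.60 (adjusted p = 0.067, limma). Lgals7, a galectin of stratified epithelia, had a difference of −0.74 (adjusted p = 0.823, limma), with null 1 low at 29.99.

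In the family of Lypd8, proteins with a Ly6 or urokinase receptor domain, 1 of 14 tested genes fell and 0 rose. At an unadjusted p under 0.05, 4 were lower and 1 higher (4.3% and 3.63% of all genes tested), and as many did not overlap between the groups (7.36% and 6.07%). Psca, a surface antigen of bladder and prostate epithelium, read 165, 100 and 271 on the null arrays, against 673, 900 and 1021 on the heterozygous arrays. It fell by 2.25 (SE 0.35, adjusted p = 0.0445, limma), but the call was lost in 9 of 16 alternatives, with an adjusted p of up to 0.188. Both counts hold the fit without null 1 once more, as the setting by title number. Ly6d, a surface protein of keratinocytes and lymphocytes, lay on the other side, at 1568, 1090 and 1770 in null against 384, 558 and 335 in heterozygous bladders. Its difference of 1.76 (SE 0.28) missed the threshold (adjusted p = 0.0542, limma) and passed it in 6 of 16 alternatives.

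In the scavenger receptor cysteine-rich family, to which Dmbt1 belongs, 0 of 10 tested genes passed, and 0 were higher and 1 lower at an unadjusted p under 0.05. Prss12, a serine protease with such domains, had a difference of −0.81 (adjusted p = 0.624, limma), and Scara5, a ferritin receptor of stroma, one of −0.26 (adjusted p = 0.867). Among pentraxins and other soluble pattern recognition genes, the list of Mptx1, 0 of 7 passed and 0 had an unadjusted p under 0.05. Fcna, a ficolin of macrophages, read 209, 170 and 158 in null bladders, against 160, 141 and 1512 in heterozygous bladders, and its difference of −0.84 was 0.22 without heterozygous 6. Colec11 and Colec12, which encode collectins, had differences of −0.66 and −0.03 (adjusted p = 0.71 and 0.993, limma). A dimmer Colec11 probe set went the other way, with no overlap between the groups. It read 82.1, 64.2 and 40.7 in null bladders, against 5.34, 10.9 and 37.4 in heterozygous bladders.

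Most partners of Pigr in the mucosal immunoglobulin system were too dim to test. Of 14 listed genes 4 were tested, 0 passed limma's test and 0 had an unadjusted p under 0.05. Jchain, the chain that joins polymeric immunoglobulins and is bound by Pigr, read 18.0, 76.1 and 16.6 in null bladders, against 36.1, 64.4 and 63.7 in heterozygous bladders (adjusted p = 0.814). Tnfsf13b, a survival factor of B cells, had a difference of −0.63 (adjusted p = 0.713), and Fcgrt, the neonatal Fc receptor for IgG, one of −0.34 (adjusted p = 0.844).

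Gut antimicrobial proteins outside the Reg family were mixed. Of 11 tested genes 2 rose and 0 fell, against 0.448% and 0.0628% of all genes tested. At an unadjusted p under 0.05, 3 were higher and 0 lower, and 3 were higher with no overlap between the groups (3.63% and 6.07% higher among all genes tested). Of 22 genes with a probe set, 11 were left out as dim. Zg16, a goblet cell lectin that binds the peptidoglycan of gram-positive bacteria, read 270, 289 and 472 on the null arrays, against 4.64, 6.34 and 2.34 on the heterozygous arrays (difference 4.10, SE 0.26, adjusted p = 4.07e-04, limma). Its brightest probe set can match further transcripts, and the other probe sets were higher in null too, with levels of 6.44 ± 0.32 in null against 4.71 ± 0.34 in heterozygous bladders and of 7.07 ± 0.36 against 5.34 ± 1.09 (SD, n = 3 each). Where another probe set was the brightest the call was lost, as without null 2 (difference 1.87, adjusted p = 0.545) or null 3 (1.78, adjusted p = 0.577). All heterozygous signals of the brightest probe set lay under the dim filter, so Zg16 passed it through the null arrays alone. Pglyrp1, which binds bacterial peptidoglycan, read 1192, 1290 and 1229 in null bladders, against 93.6, 53.0 and 120 in heterozygous bladders. It rose by 3.63 (SE 0.28, adjusted p = 0.00108, limma) and passed in all 16 alternatives. Wfdc2, the brightest of the list by its mean over the arrays, overlapped between the groups, at 2839, 3213 and 3325 in null against 2609, 3736 and 2035 in heterozygous bladders (difference 0.20, adjusted p = 0.918).

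**Figure D3:**
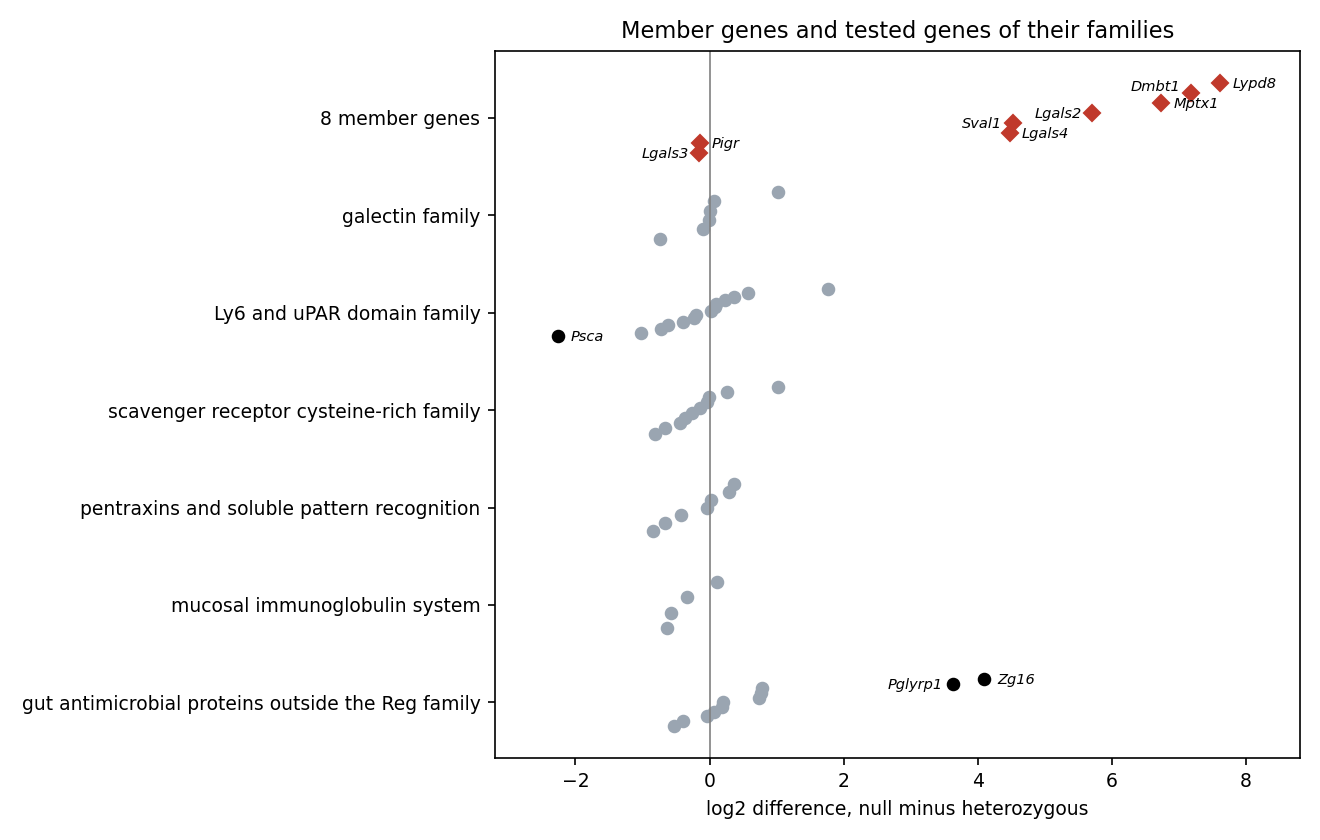
Log2 differences, null minus heterozygous, of the 8 member genes (red diamonds, described with no test) and of the tested genes of 6 family lists (circles, black where limma's adjusted p is under 0.05). The higher members lie between 4.47 and 7.61, and of the 51 relatives Zg16 and Pglyrp1 lie highest, while Psca lies lowest.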

How the data were processed

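Bladder RNA of Get1 -/- and Get1 +/- embryos had been measured on 3 arrays each, grouped by the genotype in the labels. The deposited values are linear probe set intensity. Per the submitters' processing notes, the authors used PLIER 2.0 and Affymetrix Expression Console 1.1, with no role or order stated. Their normalization was not given in the sources used here, and no genome build is named for the probes. The labelling protocol describes sense-strand targets, while these probe set names belong to arrays usually hybridised with antisense targets, which could not be settled.

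Of 45101 probe sets, 34945 had exactly 1 gene symbol in the platform annotation (symbols altered on update: 0), 932 had several, 64 were controls and 9160 were unnamed here. The signal plus an offset of 16 was put on the log2 scale, the brightest probe set stood for a gene, and the dimmest 30% of genes (mean under 5.80) were left out. The 12735 others were fitted with limma 3.58.1 in R 4.3.3 (lmFit, eBayes, two-sided, Benjamini-Hochberg over all genes, threshold 0.05). An exact permutation of 3 against 3 arrays cannot go below p = 0.1, and the number of arrays limits the precision. The fit was tested on simulated data. It called 16% of log2 changes of 1, 64% of changes of 2, 94% of changes of 4 and 72.1% of changes of −2. The last share is over the 43 such genes left in the fit, without those lost to the dim filter. Of the calls, 7.09% were on unchanged genes. The simulated noise was normal and independent between genes, so departures shared by many genes of an array were not part of it. A gene that did not pass may thus still differ, above all where the difference is near 1 or less. The members, lists and motifs were chosen with earlier results of these data known. Named were all members, and per family list the called genes, the pair with the largest difference and the brightest gene. Also named were the called marker genes and, for each member, the pair of genes most alike. Of the called intestinal markers only Cdx2 was described with its values as a marker. Other markers were named where the text refers to them and not by a fixed rule. Alternatives covered the offset, filter, probe set rule, scaling, weights, variance fit and each array left out. A further setting kept only the arrays whose titles share the first number. That leaves out null 1, so it repeats the fit without null 1, and the 16 alternatives hold this fit once more.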

Additional observations from a re-analysis of the deposited data

How the results depend on the processing

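No paired analysis was possible because the null arrays are numbered 1 to 3 and the heterozygous arrays 4 to 6, so the groups share no number. Of the genes tested 57 were higher and 8 lower in null. With an offset of 1 the counts were 35 and 5, and with the dimmest 50% left out 38 and 5. They were 77 and 12 with array weights and 66 and 10 with an offset of 64, and the other settings on all arrays gave 54 to 67 and 8 to 11. With each array left out in turn they ran from 37 to 57 higher and from 5 to 9 lower. The 3 calls on the family lists became 1 with an offset of 1, 2 to 4 under the other settings on all arrays, and 1 to 2 with an array left out. The median difference of the 8 members, 5.11, was 6.06 with an offset of 1 and 4.24 with an offset of 64, and 4.91 to 5.48 with an array left out. Signs turned for Pigr (0.032 with array weights, 0.051 without null 1, and −0.43 to 0.051 with an array left out), Lgals3 (−0.41 to 0.10), Lgals7 (2.3e-04 without null 1, and −1.23 to 2.3e-04), Lgals1 (0.0056 with probe sets averaged, 0.028 with quantile scaling, 0.024 centred, 5.75e-04 without null 1, and −0.11 to 0.083), Scara5 (0.10 averaged), Colec11 (0.31 averaged), Colec12 (0.21 with array weights, 0.079 without null 1, and −0.25 to 0.23), Fcna (−1.42 to 0.22) and Wfdc2 (−0.0016 to 0.43). Among these Lgals7, Fcna and Colec11 were not near 0 in the main setting (−0.74, −0.84 and −0.66). The sign turned without null 1 for Lgals7, without heterozygous 6 for Fcna, and with probe sets averaged for Colec11. The causes were not tested. Signals of a few units on the heterozygous arrays carry no order, so the differences of Lypd8, Dmbt1, Mptx1, Sval1 and Lgals2 depend on the offset, and 3 arrays a group limit the precision.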
